A study of Mus musculus with 4 samples.

Results

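The genes described here encode cytokines of immune cells in and around the injured brain and receptors for them. They are the cytokine genes Tnf, Tnfsf9, Osm, Il6, Lif and Il10 and the receptor genes Il6ra, Il10ra and Tnfrsf1b. The genes were taken by name from the deposited expression tables, 9 of the 19491 genes listed in any of them, and a gene missing from the list of a library was given 0 UMIs there. The study asked what drives the regrowth of vessels in the injured dura mater, and immune cells were profiled as a possible source of signals. CD45+ hematopoietic cells of adult C57BL/6J mice were sorted from dura mater or brain on day 3, either from sham operated mice (S3) or from mice with photothrombotic injury (PTI; D3), in which light activates a dye inside vessels so that they clot. The cells were dissociated with warm enzyme solution and sequenced on the 10× Chromium platform, which tags every cell with a barcode and every captured molecule with a unique molecular identifier (UMI). The 4 groups, brain S3, brain D3, dura S3 and dura D3, are 1 library each, and the number of mice in a library is not given in the sources used here. The deposited labels mark the controls only as CT, and these were taken as the sham operated mice. The labels of both brain libraries write the sorted fraction as CD45pos in 1 place and as CD45-+ in another, and it was taken as CD45+.

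Tumour necrosis factor, the product of Tnf, is an early alarm signal that macrophages release as a membrane protein cut free by the protease ADAM17, and it acts through 2 receptors, of which the one encoded by Tnfrsf1b is found mainly on immune and endothelial cells. Tnfsf9 encodes 4-1BB ligand, which costimulates T cells. Oncostatin M (Osm), interleukin-6 (Il6) and leukemia inhibitory factor (Lif) belong to a family of cytokines that share the signal transducer gp130, and Il6ra gives the interleukin-6 specific chain of the receptor. Interleukin-10 restrains macrophages and dendritic cells, and its receptor chain Il10ra is what makes a cell responsive to it. In the brain these signals are known for shaping the reaction of microglia and of incoming monocytes to injury.

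The messages of such cytokines are short-lived, and AU-rich stretches of the 3′ untranslated region (UTR), which proteins such as tristetraprolin bind, are known to shorten their life. The 7-base core TATTTAT was searched on the mRNA strand of the GENCODE vM21 3′ UTR of each gene, in the GRCm38 build, with overlapping matches counted. All 6 cytokine genes held at least 1 copy, as did Il10ra, whereas Il6ra and Tnfrsf1b held none. The richest stretch of 4 of the 6 cytokine UTRs is shown 5′ to 3′ as examples, with the core in capitals. Of the 6 cytokine UTRs, all but that of Il6 held a number of cores that few genes of like length reach. The stretches of Tnfsf9 and Il6 are not shown.
Tnf, chr17:35199678-35199707, minus strand: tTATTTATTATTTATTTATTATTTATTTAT
Osm, chr11:4240945-4240974, plus strand: ttttaTATTTATaaggccTATTTATaatgt
Lif, chr11:4270477-4270506, plus strand: gtcTATTTATtactatgtccTATTTATatt
Il10, chr1:131024384-131024413, plus strand: ctctctccgaaaTATTTATtacctctgata
The Tnf UTR of 764 bases held 8 cores, 5 of them in the 30 bases shown. Of 1201 genes with a 3′ UTR within 10% of that length, 20.6% held 1 core or more and 0.167% held as many as Tnf. Il10 held 4 cores in 706 bases, a number reached by 0.681% of genes of like length. Osm held 3 and Lif held 5, numbers reached by 1.9% and 1.83% of genes of like length. Of genes as long as Lif, 57.1% held at least 1. Tnfsf9 held 2 in 253 bases, reached by 0.463%, and Il6 held 1, which 11.2% of genes of its length also do. The receptor gene Il10ra held 3 in 1693 bases, reached by 4.66%. Over all 21020 genes with a 3′ UTR the share with at least 1 core was 26.2%. A match is a string of letters and not a measured binding site.

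After filtering, 14098 cells remained, 3618 of brain S3, 4438 of brain D3, 3439 of dura S3 and 2603 of dura D3. They held 37590286, 72390201, 41709177 and 40479076 UMIs, and median UMIs per cell ran from 8252 in brain S3 to 14270 in brain D3. Pairs of libraries shared 3 to 11 barcodes, at most 0.229% of the smaller one. Cells were clustered without the 9 genes and their pathway lists, and clusters were given names such as microglia-like from marker lists, so that every class name below means cells that resemble that type. A cluster of 89 cells led by endothelial and fibroblast genes such as Cldn5 and Dcn, which a CD45 sort should have removed, was left unnamed with 2 others. Proliferating cells were named from cell cycle genes such as Mki67 and Top2a, and the lineages within that class were not separated. Microglia-like cells numbered 432 and 629 in the brain libraries and 4 and 6 in the dura mater. Mast cells were almost all in the dura mater, and infiltrating macrophages, marked by genes such as Arg1, Spp1 and Gpnmb, were 1392 of the brain D3 cells, 21 of dura D3, 6 of brain S3 and 1 of dura S3. A cluster led by Cxcl3, Siglecf, Igfbp6 and Acod1 matched no list and is called the Siglecf cluster. It held 139 cells in brain D3 and 1 to 9 elsewhere, with a median of 3001 UMIs a cell in brain D3. A list of 12 genes that warm dissociation is known to induce, Fos, Jun and Egr1 among them, was followed as a measure of handling. Its genes were at least 2-fold lower on D3 in 29 of 144 pairs of gene and class in the brain and higher in 1, where 3.74% and 3.29% of all pairs were. In the dura mater 21 of 168 pairs were lower (12.5%) and 6 higher (3.57%), where 2.29% and 2.23% of all pairs were.

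Levels are given as UMIs of a gene per 1000000 UMIs of the class (CPM) with exact Poisson 95% intervals, and shares of cells with exact binomial ones. Both cover counting error only, and UMIs of a single cell are not independent. With 1 library a group the variation from mouse to mouse is unknown here, and differences were not tested. A gene is called higher or lower where its 2 groups held at least 10 UMIs together, the log2 ratio was at least 1 in size and its interval did not reach 0. Classes with at least 20 cells in a library have a level, which gave 72 groups, and those with at least 50 in both libraries were compared.

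The 9 genes split into those used by many classes and those used by few. Osm exceeded 100 CPM in 36 of the 72 groups, Tnf, Il6ra and Il10ra in 26 each, Tnfrsf1b in 23 and Tnfsf9 in 11. Lif exceeded it in 1 and Il6 and Il10 in none, and these 3 genes had no UMI at all in 23, 25 and 15 groups. Few cells carried the scarce cytokines. A single cell held most of the Il10 UMIs (over 50%) in 27 groups, of Lif in 19 and of Il6 in 17, against 5 groups for Tnf and 1 for Osm.

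Tnf lies at chr17:35199381-35202007 on the minus strand, 1.16 kb from Lta and 3.06 kb from Ltb, which encode the lymphotoxins. Summed over all cells, its level was 143 CPM (139 to 147) in brain S3, 164 in brain D3, 91.9 (89.0 to 94.9) in dura S3 and 145 in dura D3. Both injured libraries were thus above their sham library. A sum over a library does not tell more RNA per cell from more cells of a class that expresses the gene. In the dura mater, the 18 classes with levels in both libraries gave 86.5 CPM in S3 and 140 in D3, but 98.4 when the D3 levels were weighted by the sham share of each class. In the brain, 15 such classes gave 145 and 205, and 174 at the sham make-up.

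The Siglecf cluster of brain D3 held the highest Tnf level of all groups, 3306 CPM (3139 to 3479). Tnf was found in 109 of its 139 cells (78.4%), and in 76.6% of those with enough UMIs after thinning each to 2000 UMIs. It was also among the 10 genes with the largest fold over other clusters, although it had been kept out of the clustering. This cluster was 3.13% of the brain D3 cells and held 12.4% of the library's Tnf. B cells of the 2 dura mater libraries and brain S3 were at the low end, with 3.99 to 9.79 CPM and a Tnf UMI in 2.42% to 4.64% of cells, at medians of 4725 to 5428 UMIs. Those of brain D3 stood at 103 CPM, and T cells at 46.4 to 65.3.

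Mast cells of the dura mater, which store preformed mediators in granules, came next with 445 CPM (401 to 492) in S3 and 631 (584 to 682) in D3, and 87.0% and 90.4% of their cells had a Tnf UMI. The log2 ratio was 0.51 (0.32 to 0.69), and the 2 intervals did not overlap. Microglia, the resident macrophages of the brain tissue, had 337 CPM (322 to 354) in S3 and 351 (340 to 363) in D3, with overlapping intervals and a log2 ratio of 0.06 (-0.02 to 0.14). They held 32.6% of the Tnf UMIs of brain S3 and 31.7% of those of brain D3. More of the microglia had a Tnf UMI in D3 (393 of 629 cells) than in S3 (207 of 432). Their median UMIs per cell were 10548 in D3 and 9749 in S3. The richest cell held 125 of the 1748 microglial Tnf UMIs in S3 and 90 of the 3769 in D3. In gamma-delta T cells, which line the meninges, Tnf stood at 272 and 251 CPM in brain S3 and D3, at 276 in dura S3 and at 151 in dura D3, the lowest of the 4.

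Border macrophages were separated into Lyve1+ and Lyve1- classes, Lyve1 being a marker of those along vessels. Lyve1+ macrophages of the brain held 136 CPM of Tnf (119 to 154) in S3 and 317 (291 to 345) in D3, a log2 ratio of 1.23 (1.01 to 1.45). In the dura mater the same class held 201 and 261 CPM, a log2 ratio of 0.38 (0.27 to 0.49). Lyve1- macrophages held more than Lyve1+ ones in each library, 386 and 378 CPM in brain S3 and D3 and 269 and 335 in dura S3 and D3. The Lyve1+ call in the brain was lost when doublets were kept or cells thinned. The 12 dissociation genes together stood at 23030 CPM in the sham and 24684 in the injured Lyve1+ class, and none of them differed 2-fold.

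**Figure D1:**
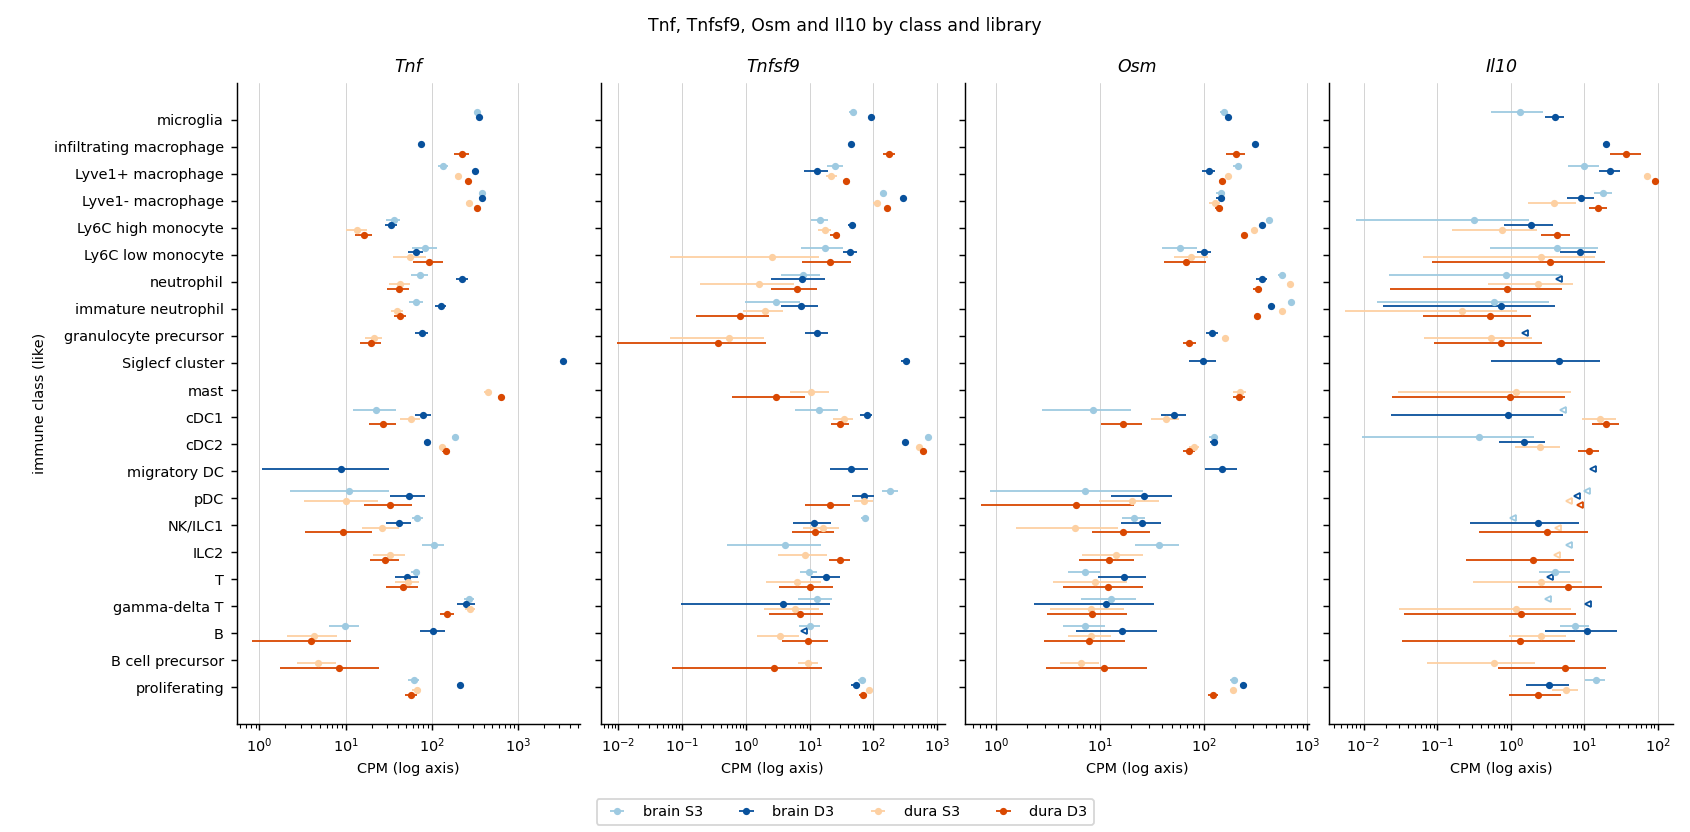
Level in CPM of Tnf, Tnfsf9, Osm and Il10 (panels) in each class of the 4 libraries, with bars for 95% Poisson intervals (counting error only). Open triangles mark the limit of 3 UMIs where no UMI was found. The Siglecf cluster stands out for Tnf at 3306 CPM, cDC2 for Tnfsf9, neutrophils for Osm and Lyve1+ macrophages of the dura mater for Il10.

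Neutrophils, immature neutrophils, proliferating cells and B cells also differed in Tnf between sham and injured brain, although immature neutrophils did not reach the call. Immature neutrophils held 110 Tnf UMIs in S3 and 174 in D3, but 46 of those in D3 were in 1 cell. A Tnf UMI was found in 54 of 152 immature neutrophils in S3 and 45 of 113 in D3. Neutrophils went from 72.4 CPM (57.8 to 89.7) in S3 to 226 (191 to 265) in D3, whereas in the dura mater they stood at 42.9 and 41.2 CPM. In brain D3, 38 of the 149 Tnf UMIs of neutrophils were in 1 cell of 28274 UMIs, where the class median was 4512. In proliferating cells Tnf was 61.5 CPM in S3 and 215 in D3, and Tnf UMIs were found in 51.9% and 51.3% of the cells. In B cells of brain D3, 38 UMIs gave 103 CPM against 9.79 in S3, but 68.4% of them were in 1 cell, and the log2 ratio of 3.40 (2.65 to 4.17) dropped to 1.94 without the richest cell of each group. The conventional dendritic cells cDC2, which present antigen to helper T cells, ran the other way in the brain, from 185 CPM (169 to 202) to 89.1 (81.6 to 97.0), a log2 ratio of -1.06 (-1.24 to -0.88), while those of the dura mater had 133 and 146 CPM. The neutrophil call was lost without the filter on cells and the cDC2 call at a clustering resolution of 1.2. In neutrophils 8 of the 12 dissociation genes were lower in D3, and their sum was 14393 CPM in S3 and 7190 in D3. Their part in these results was not tested.

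Tnfsf9 is at chr17:57105325-57107757 on the plus strand, near the related genes Cd70 (38.2 kb) and Tnfsf14 (81.7 kb), and a predicted gene, Gm11110, overlaps it on the opposite strand. Its highest levels were in cDC2. This class held 709 CPM (678 to 742) in brain S3, 314 (299 to 328) in brain D3, 522 (499 to 547) in dura S3 and 589 (563 to 617) in dura D3. The injured brain was the low group, with a log2 ratio to the sham brain of -1.18 (-1.27 to -1.08), and no interval of the other 3 groups reached it. From 70.5% to 86.8% of cDC2 had a Tnfsf9 UMI. Between 31.6% and 61.8% of a library's Tnfsf9 UMIs were in this class. The 12 dissociation genes summed to 11392 CPM in cDC2 of brain S3 and 8088 in D3, with 1 of 12 lower. The call was lost when each cell was gated on its own.

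Lyve1- macrophages, microglia and Ly6C high monocytes of the brain had the reverse order for Tnfsf9. Lyve1+ macrophages of the brain did not, with 25.2 CPM (18.4 to 33.7) in S3 and 12.8 (8.03 to 19.4) in D3. Lyve1- macrophages held 144 CPM (130 to 159) in brain S3 and 289 (269 to 311) in brain D3, a log2 ratio of 1.01 (0.83 to 1.19) whose call held under 7 of 10 other settings, and 114 and 166 in the dura mater. Microglia had 47.1 and 90.8 CPM, and Ly6C high monocytes, the inflammatory monocytes of blood, 14.5 (10.6 to 19.3) and 46.0 (39.8 to 53.0). In these monocytes the log2 ratio was 1.67 (1.2 to 2.16) in the brain and 0.57 (0.13 to 1.02) in the dura mater. NK/ILC1 cells had 74.3 CPM in brain S3 and 11.6 in brain D3 (log2 ratio -2.68, -3.76 to -1.77), although the share of cells with a UMI differed less, 11.4% and 7.14%. The Siglecf cluster, at 321 CPM, was another high group.

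Osm is at chr11:4236420-4241026 on the plus strand, 16.5 kb from Lif, and its product acts on gp130 with either of 2 partner receptors. Its highest levels were in neutrophils and Ly6C high monocytes, whereas Ly6C low monocytes held 59.9 to 102 CPM. Library levels were 169 CPM in brain S3, 240 in brain D3, 194 in dura S3 and 149 in dura D3. The brain was thus higher after injury and the dura mater lower, but over classes with levels in both brain libraries the 173 CPM of S3 stood against 184 in D3 and 153 at the sham make-up. Without the infiltrating macrophages brain D3 was at 179 CPM. That class held 58.6% of the Osm UMIs of brain D3.

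Immature neutrophils, which carry granule genes such as Ltf and Camp, held 688 CPM of Osm (649 to 729) in brain S3 and 448 (413 to 485) in brain D3, and 574 (552 to 596) and 325 (307 to 344) in the dura mater. Mature neutrophils held 567 and 362 CPM in the brain and 679 and 333 in the dura mater. In both tissues the injured groups were below the sham groups with intervals apart, and in dura mater neutrophils the log2 ratio of -1.03 (-1.21 to -0.85) passed the call, as it did under 5 of 10 other settings. Granulocyte precursors of the dura mater had 162 CPM in S3 and 72.8 in D3, a log2 ratio of -1.15 (-1.39 to -0.92). That call was lost without the filter on cells and with cells thinned to 2000 UMIs. Of all granulocyte precursors, 27.6% fell in this class when each cell was gated on its own. Over the 14 classes compared in the dura mater, 6 had an Osm interval below 0 and none above, where 10.0% of all pairs of gene and class were below and 6.88% above. The dissociation genes summed to 14838 CPM in sham and 10153 in injured dura mater neutrophils, with 2 of 12 higher and 1 lower. Median UMIs per neutrophil there were 4603 and 6586. In brain neutrophils most of the 12 genes and their sum were lower in D3, as given above with Tnf. The part of the dissociation genes in the Osm differences was not tested.

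Osm differed less between S3 and D3 in most monocytes and macrophages. Ly6C high monocytes had 423 and 365 CPM in brain S3 and D3 and 305 and 247 in dura S3 and D3. Microglia had 156 and 172 CPM, Lyve1- macrophages 146 in both brain libraries, and Lyve1+ macrophages 213 (193 to 236) and 112 (96.6 to 129), a log2 ratio of -0.93 (-1.19 to -0.68). The Lyve1+ class of the brain thus had more Tnf and less Osm in D3 than in S3. In T cells, where Osm is not a leading product, 5.50% to 10.0% of cells had an Osm UMI at medians of 5945 to 7810 UMIs. The T cell values of the brain, 7.18 and 17.1 CPM, pass the call, and B cells of the same libraries held 7.25 and 16.3.

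**Figure D2:**
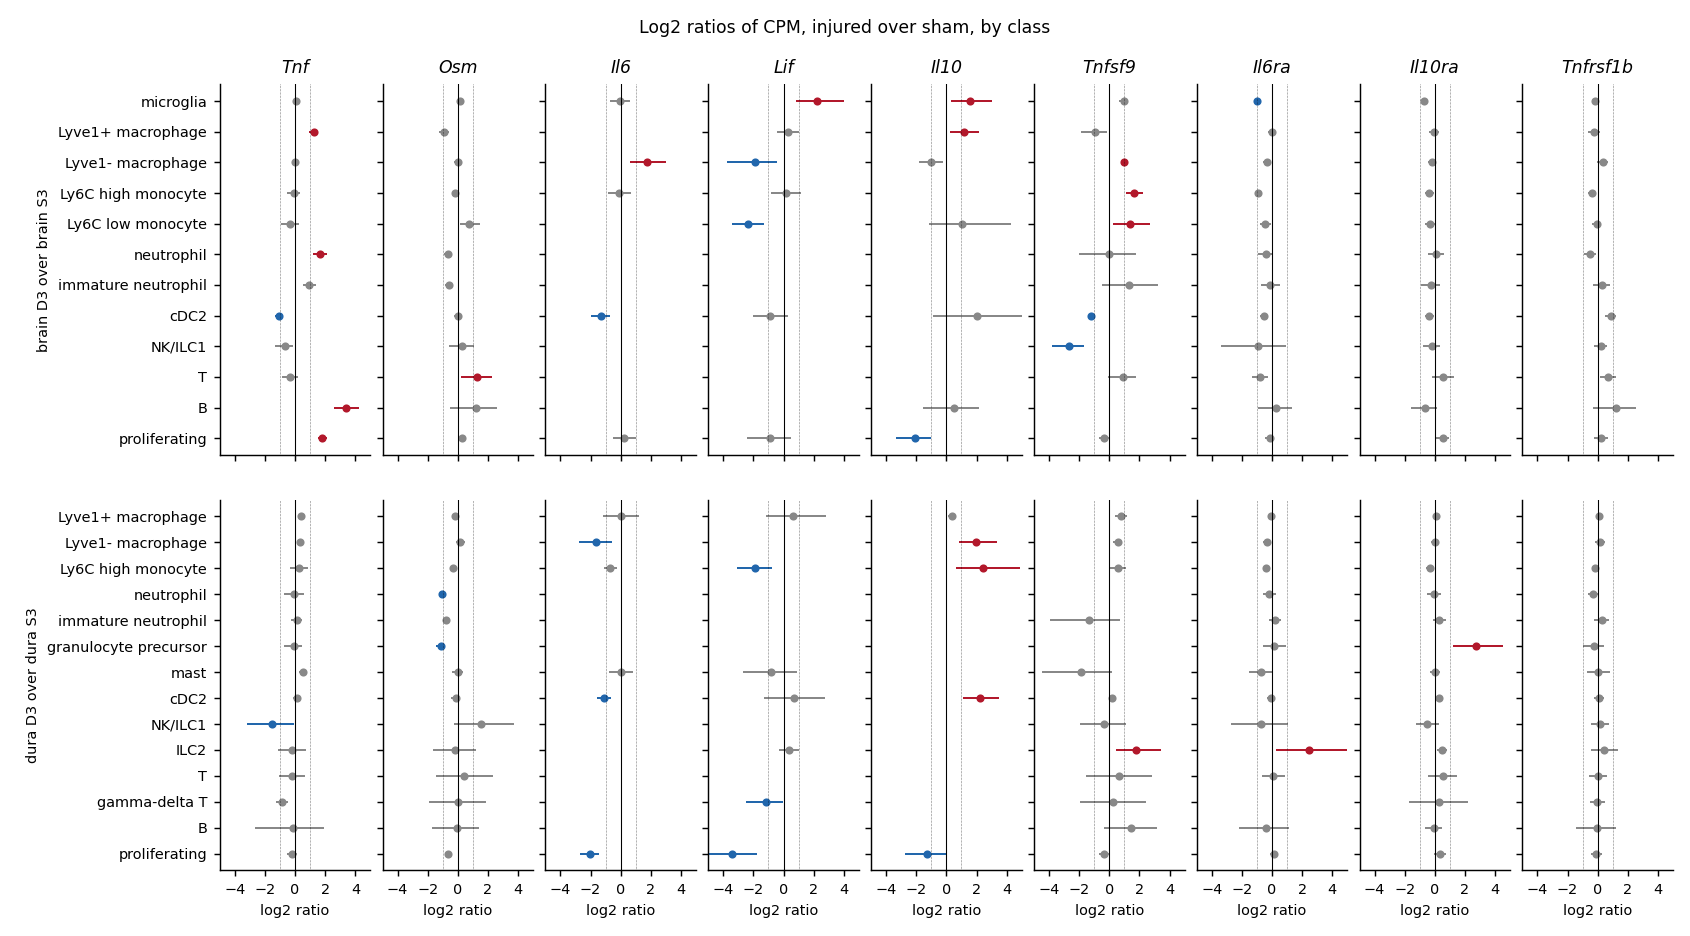
Log2 ratio of D3 over S3 for each gene (panels) and class (rows), in brain and dura mater, with 95% intervals from counting error. Red points were at least 2-fold higher, blue at least 2-fold lower and grey neither; dotted lines mark a ratio of 2 in each direction and the axis ends at 5. Tnf points lie on both sides in the brain, and most Osm and Il6 points of the dura mater lie at or left of 0.

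Il6, at chr5:30013114-30019981 on the plus strand, was rare everywhere. The 4 libraries held 219, 325, 621 and 315 UMIs of it in the order brain S3, brain D3, dura S3 and dura D3. The level of dura S3, 14.9 CPM, was the highest, and those of the others were 5.83, 4.49 and 7.78. cDC2 of the dura mater held 48.1 CPM (41.2 to 55.8) in S3 and 22.3 (17.4 to 28.1) in D3, and those of the brain 23.2 (17.8 to 29.7) and 9.18 (6.89 to 12). The log2 ratios were -1.11 (-1.53 to -0.70) and -1.34 (-1.89 to -0.79), so injured cDC2 were lower in both tissues, with the call held under 4 of 10 other settings in the dura mater and 7 of 10 in the brain. Il6 UMIs were found in 28.0% and 16.7% of dura mater cDC2. In gamma-delta T cells no Il6 UMI was found in any library.

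Ly6C high monocytes of the dura mater held 39.5 CPM of Il6 in S3 and 24.6 in D3. In the brain they stood at 10.7 and 10.0 CPM. Mast cells held 35.3 and 36 CPM, with a log2 ratio of 0.03 (-0.71 to 0.77). Proliferating cells of the dura mater went from 42.3 CPM to 10.4 (log2 ratio -2.03, -2.62 to -1.48). A single cell held 25.4% of their S3 UMIs. The call held under 7 of 9 other settings and was lost when gated per cell and at resolution 1.2. Proliferating cells held 31.7% of the Il6 UMIs of dura S3, against 27.9% in cDC2 and 24.8% in Ly6C high monocytes. Infiltrating macrophages, the largest class of the injured brain, held 1.95 CPM (1.5 to 2.5).

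Lif, at chr11:4257557-4272514 on the plus strand, had its highest levels in a lymphoid class. Type 2 innate lymphoid cells (ILC2), which make the cytokines of allergy and repair, held 211 CPM (172 to 256) in brain S3, 61.4 in dura S3 and 78.4 in dura D3. Lif was found in 29 of 67 ILC2 of brain S3 (43.3%) and in 14.4% and 26.9% of those of the dura mater. In dura S3, 51.2% of the Lif UMIs of ILC2 were in 1 cell. ILC2 of brain D3 numbered 19 and have no level. Gamma-delta T cells followed with 53.7 and 26.6 CPM in the brain and 31.9 and 14 in the dura mater. The brain D3 level (10.7 to 54.9) rested on 7 UMIs, 71.4% of them in 1 cell. No B cell of any library had a Lif UMI. Of the Lif UMIs of dura S3, proliferating cells held 27.4% and ILC2 23.1%. Infiltrating macrophages held 37.1% of those of brain D3, at 4.03 CPM.

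Lyve1+ macrophages differed by tissue in Lif. Those of the brain held 21.3 CPM (15.1 to 29.2) in S3 and 25.6 (18.6 to 34.4) in D3, and those of the dura mater 0.860 (0.234 to 2.20) and 1.34 (0.690 to 2.33). The log2 ratio of brain S3 to dura S3 was 4.63 (3.16 to 6.58), on 38 and 4 UMIs. In microglia 5 UMIs in S3 and 49 in D3 gave 0.965 and 4.57 CPM, but 80.0% of the sham UMIs were in a single cell.

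Il10 is at chr1:131019845-131024974 on the plus strand, in a cluster with Il19 (79.7 kb) and Il24 (132 kb). Library levels were 5.27 CPM in brain S3, 10.9 in brain D3, 10.8 in dura S3 and 27.2 in dura D3, so each injured library was above its sham library. Lyve1+ macrophages of the dura mater were its main source, with 72.7 CPM (65.2 to 80.9) in S3 and 92.9 (86.7 to 99.5) in D3, a log2 ratio of 0.35 (0.17 to 0.54). They held 74.8% and 75.8% of the Il10 UMIs of those libraries. Il10 was found in 47 of 366 cells (12.8%) and 93 of 551 (16.9%), or in 4.67% and 8.17% at 2000 UMIs. At the sham make-up of the classes the D3 level of the dura mater was 14.9 CPM, against 26.4 at its own.

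In the brain the same class held far less Il10, 10.1 CPM (5.98 to 15.9) in S3 and 22.7 (16.1 to 31.0) in D3, a log2 ratio of 1.17 that stayed called under 3 of 10 other settings. Brain S3 was below dura S3 with a log2 ratio of -2.85 (-3.62 to -2.17), which was called under all 10 other settings. In Lyve1- macrophages the order was the opposite, 18.3 CPM in brain S3 and 3.95 in dura S3 (log2 ratio 2.21, 1.12 to 3.5), but it turned when 2500 cells were drawn per library. In the injured brain 80.1% of Il10 UMIs were in infiltrating macrophages, at 19.6 CPM (18.1 to 21.2), and without them brain D3 stood at 3.91 CPM. The dura mater cDC2 difference, 2.50 and 11.6 CPM, rested on 1 cell with 78.4% of the D3 UMIs and was lost without it.

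**Figure D3:**
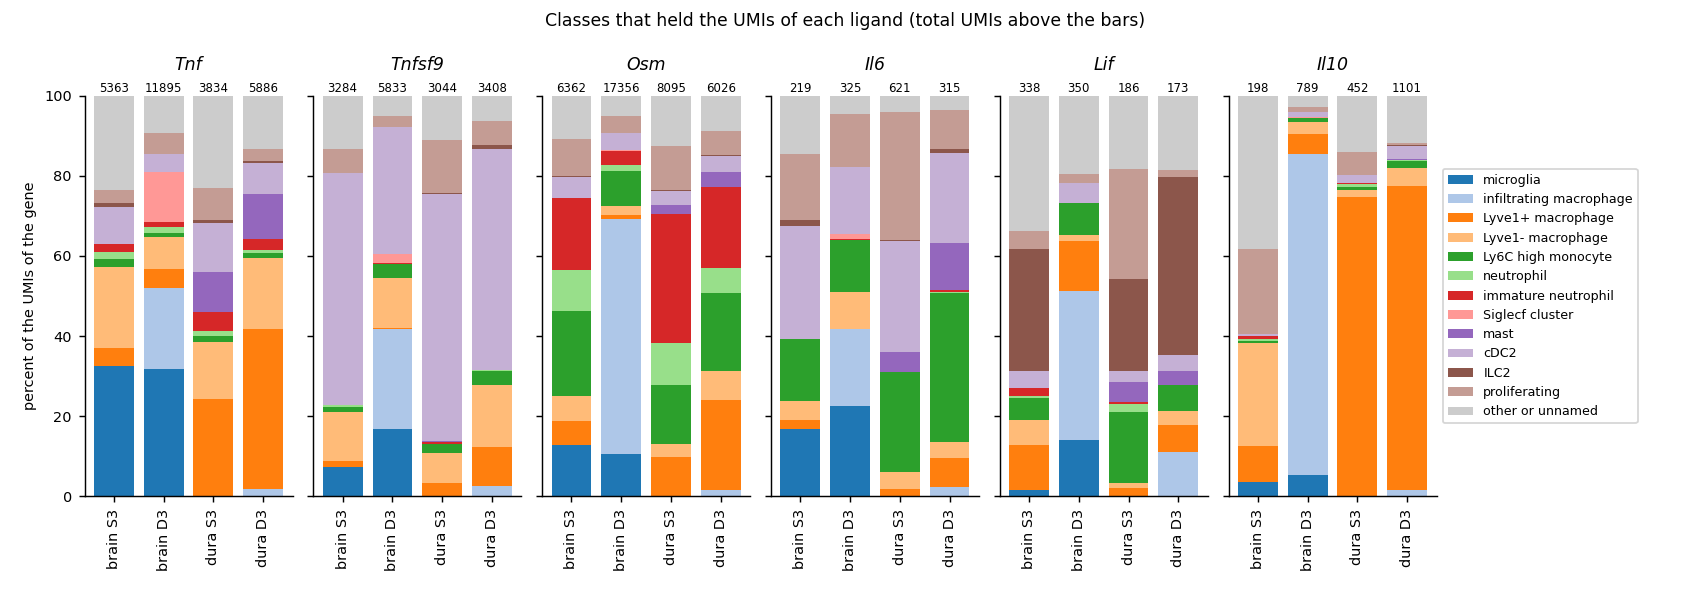
Share of the UMIs of each ligand gene (panels) held by each class in the 4 libraries (bars); numbers above the bars are the UMIs of the library. Infiltrating macrophages hold 58.6% of Osm and 80.1% of Il10 in brain D3, and Lyve1+ macrophages hold 74.8% and 75.8% of Il10 in the dura mater libraries.

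The receptor genes were spread more evenly. Tnfrsf1b, at chr4:145213463-145246870 on the minus strand, was highest in Ly6C low monocytes, which patrol vessels, with 374 and 354 CPM in brain S3 and D3 and 447 and 386 in dura S3 and D3. All 4 intervals overlapped, from 318 to 518. Neutrophils had 226 (199 to 255) and 159 (130 to 193) CPM in the brain and 178 and 145 in the dura mater. T cells of the brain stood apart from those of the dura mater, with 37.9 CPM (32.4 to 44.1) in brain S3 and 105 (83.3 to 130) in dura S3, a log2 ratio of -1.46 (-1.85 to -1.07). On D3 they had 61.7 and 107 CPM. B cells, at 8.34 to 19.0 CPM, and B cell precursors of dura S3, at 4.19, were the low end.

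Il6ra, at chr3:89864059-89913196 on the minus strand, overlaps the predicted gene Gm42809 on the other strand. Ly6C low monocytes held 280 and 205 CPM in brain S3 and D3 and 299 and 328 in the dura mater. Microglia had 296 CPM (281 to 311) in S3 and 146 (139 to 154) in D3, a log2 ratio of -1.02 (-1.12 to -0.91) called under 6 of 10 other settings, with Il6ra in 93.8% and 85.2% of cells. In Ly6C high monocytes of the brain it was 228 and 121 CPM. Lyve1+ macrophages, by contrast, differed little between S3 and D3, 206 and 204 CPM in the brain and 236 and 221 in the dura mater. Over the 12 brain classes the Il6ra interval was below 0 in 6 and above in none, where 13.6% of all pairs were below and 10.2% above. Dissociation genes moved with the microglial difference, at 25977 CPM in S3 and 13970 in D3 with 3 of 12 lower, and their part in it was not tested. Gamma-delta T cells, at 3.22 to 7.61 CPM, had next to no Il6ra.

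Il10ra is at chr9:45253837-45269149 on the minus strand and overlaps Gm20612 on the other strand and Mir7086. The highest level was that of ILC2 in dura D3. ILC2 of the dura mater held 253 CPM (217 to 293) in S3 and 356 (320 to 396) in D3, a log2 ratio of 0.50 (0.23 to 0.76), and ILC2 of brain S3 held 189. Microglia had 267 CPM (253 to 282) in S3 and 159 (151 to 166) in D3, a log2 ratio of -0.75 (-0.86 to -0.65). With each cell at the same weight the levels were 307 and 222 CPM. The dissociation genes of microglia were also lower in D3, as given with Il6ra, and their part in this difference was not tested. Ly6C low monocytes ranged from 195 to 329 CPM and mast cells stood at 213 in both dura mater libraries. In granulocyte precursors of the dura mater 5 UMIs in S3 and 24 in D3 gave 1.35 and 8.87 CPM (log2 ratio 2.72, 1.30 to 4.46). This call was lost without the filter on cells.

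Taking all 9 genes in the injured against the sham brain, 92 pairs of gene and class in 12 classes could be compared. Of these 12 (13%) were at least 2-fold higher in D3 and 8 (8.70%) at least 2-fold lower, where 3.29% and 3.74% of all pairs of gene and class were called. Tnf gave 4 of the higher calls, in neutrophils, Lyve1+ macrophages, proliferating cells and B cells, and 1 lower call, in cDC2. Tnfsf9 was higher in Lyve1- macrophages and both monocyte classes and lower in cDC2 and NK/ILC1 cells. The remaining higher calls were Osm in T cells, Il6 in Lyve1- macrophages, Lif in microglia and Il10 in microglia and Lyve1+ macrophages. The Il10 values in microglia were 7 UMIs in S3 and 43 in D3. The other lower calls were Lif in Ly6C low monocytes and Lyve1- macrophages, Il6 in cDC2, Il6ra in microglia and Il10 in proliferating cells, where 92.9% of the sham UMIs were in 1 cell. The Lif call in Ly6C low monocytes was lost without the richest cell, which held 66.7% of the 24 S3 UMIs. The lineages within proliferating cells were not separated, and their part in the calls of that class was not tested. The calls that held in every setting with a value were Tnf in B and proliferating cells and Tnfsf9 in NK/ILC1 cells. Those of Il6 in Lyve1- macrophages, Tnfsf9 in Ly6C low monocytes, Osm in T cells and Il10 in proliferating cells turned direction under at least 1 setting.

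In the dura mater 99 pairs in 14 classes were compared. Of these 6 (6.06%) were higher in D3 and 10 (10.1%) lower, where 2.23% and 2.29% of all pairs were called. Higher were Il10 in Lyve1- macrophages, Ly6C high monocytes and cDC2, Tnfsf9 and Il6ra in ILC2 and Il10ra in granulocyte precursors. In Lyve1- macrophages Il10 went from 3.95 CPM (1.71 to 7.78) to 15.6 (11.6 to 20.7), a log2 ratio of 1.98 (0.89 to 3.27). The Il10 call in Ly6C high monocytes was lost without its richest cell. Lower were Il6 in cDC2, Lyve1- macrophages and proliferating cells, Lif in gamma-delta T cells, Ly6C high monocytes and proliferating cells, Osm in neutrophils and granulocyte precursors, Tnf in NK/ILC1 cells and Il10 in proliferating cells. The Il6 call in Lyve1- macrophages was lost without the richest cell, which held 57.7% of the 26 S3 UMIs. Only Lif in proliferating cells, whose lineages were not separated, was called in every setting with a value. Tnfsf9 and Il6ra in ILC2, Il10 in cDC2, Lyve1- macrophages and proliferating cells and Lif in gamma-delta T cells turned direction under at least 1. Tnf, which had 5 calls in 12 classes of the brain, had this 1 call in 14 classes of the dura mater, and the difference between the tissues was not tested.

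Brain S3 and dura S3 allowed 86 pairs in 12 classes, of which 17 (19.8%) were at least 2-fold higher in the brain and 7 (8.14%) lower, where 2.38% and 4.22% of all pairs were called. The 2 libraries come from the same sham condition but differ in tissue, and the study's methods describe the same enzyme digestion for both. Each tissue is 1 library, so tissue cannot be told apart from library. Tnf intervals were above 0 in 8 of 12 classes and below in 1, where 7.36% and 14.3% of all pairs were. Ly6C high monocytes held 36 CPM of Tnf (29.7 to 43.2) in brain S3 and 13.6 (10.2 to 17.8) in dura S3, a log2 ratio of 1.40 (0.92 to 1.90). All 4 Il6 calls were lower in the brain, with 10.7 CPM (7.43 to 15.0) against 39.5 (33.5 to 46.3) in these monocytes. Both monocyte calls held under all 10 other settings, as did those of Il10 in Lyve1+ macrophages and Tnfrsf1b in T cells. The dissociation genes were higher in the brain in 35 of 144 pairs and lower in 8, and 4 of 12 were higher in these monocytes, where they summed to 18561 and 11915 CPM. Their part in the higher Tnf was not tested.

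Infiltrating macrophages had no counterpart in the sham brain, so they were set against Lyve1+ and Lyve1- macrophages together in brain S3 and D3 and against microglia of brain D3. They held 75.3 CPM of Tnf (72.3 to 78.3), against 289 (273 to 305) and 354 (336 to 372) in the other macrophages of S3 and D3 and 351 in microglia. The log2 ratios were -1.94 (-2.04 to -1.84), -2.23 and -2.22. Osm ran the other way, with 315 CPM (309 to 321) against 172, 132 and 172, and 91.1% of infiltrating macrophages had an Osm UMI. Its log2 ratios were 0.87, 1.26 (1.13 to 1.38) and 0.88, so the call was reached against the other macrophages of D3, though not when each cell was gated on its own (0.69).

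Il10 in infiltrating macrophages, 19.6 CPM, was 2.29 higher than in microglia on the log2 scale and 0.42 and 0.38 above the other macrophages of D3 and S3. Il6ra at 55.7 CPM (53.1 to 58.3) and Il10ra at 65.8 (63.1 to 68.7) were below all 3 references, with log2 ratios of -1.73 and -1.33 against the other macrophages of S3. Tnfrsf1b, at 98.8 CPM (95.4 to 102), was 0.30 to 0.38 above them on the log2 scale. Against macrophages of S3, 5 of the 9 genes were lower and none higher, where 19.3% and 6.03% of all genes were called. The counts were 6 lower and 1 higher against macrophages of D3 (13.9% and 5.59% of genes) and 5 lower and 1 higher against microglia (18.7% and 6.23%). Infiltrating macrophages also had the most UMIs a cell, a median of 21852 against 9494 in the other macrophages of D3, and their 12 dissociation genes summed to 8227 CPM against 22416, 20290 and 13970, with 6 of 12 lower each time. The part of both in these results was not tested. The 21 infiltrating macrophages of dura D3 held 223 CPM of Tnf (183 to 270) and 204 of Osm (166 to 249).

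Tnf and Osm were also followed in the same cells. Of 751 infiltrating macrophages with a Tnf UMI, 701 (93.3%) also had Osm, against 88.5% of those without Tnf and 91.1% of the whole class. In microglia of brain D3 the shares were 73.5% of 393 and 35.6%, but cells with Tnf had a median of 20157 UMIs and those without 6841. In the Siglecf cluster 22 of 24 cells with Osm had Tnf, where 109 of all its 139 cells (78.4%) did. Of 154 infiltrating macrophages with Il10, 146 (94.8%) had Osm, where 91.1% of all cells of the class did.

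Related genes were followed in 4 lists. The other ligands and receptors of the TNF family gave 12 higher and 17 lower of 158 pairs in the injured brain (7.59% and 10.8%) and 9 and 7 of 178 in the dura mater (5.06% and 3.93%). Over all pairs of gene and class the shares were 3.29% and 3.74% in the brain and 2.23% and 2.29% in the dura mater. Among them Tnfsf13b, which encodes the B cell survival factor BAFF, was lower in cDC2 of the injured brain, with a log2 ratio of -2.19. In infiltrating macrophages it stood at 1.67 CPM against 35.6 in the other macrophages of S3, while Tnfsf12, the ligand TWEAK, stood at 187 against 71.3. Genes of the NF-kappaB feedback, which Tnf is known to induce, gave 9 higher and 10 lower of 190 pairs in the brain (4.74% and 5.26%) and 1 and 3 of 215 in the dura mater (0.465% and 1.40%), the latter below the shares of all pairs. Nfkbiz was 193 CPM in infiltrating macrophages and 621 in the other macrophages of S3. In sham neutrophils Nfkbia, the inhibitor that NF-kappaB restores, was 2891 CPM in the brain and 1143 in the dura mater.

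The rest of the gp130 family and its pathway gave 6 higher and 7 lower of 148 pairs in the brain (4.05% and 4.73%, near the 3.29% and 3.74% of all pairs) and 7 and 2 of 166 in the dura mater (4.22% and 1.2%, against 2.23% and 2.29%). Socs3, the feedback inhibitor of interleukin-6 signals, was higher in injured than sham brain in proliferating cells (217 and 61.9 CPM) and in Lyve1+ macrophages (168 and 70.0 CPM). Lifr, the receptor chain for leukemia inhibitory factor, was 8.90 CPM in infiltrating macrophages against 99.7 in the other macrophages of S3. The interleukin-10 family and its response genes gave 11 higher and 1 lower of 96 pairs in the brain (11.5% and 1.04%) and 7 and 0 of 113 in the dura mater (6.19% higher). Nfil3, a transcription factor of the interleukin-10 response, was 209 CPM in infiltrating macrophages and 54.6 in the other macrophages of S3. In gamma-delta T cells Il22 gave 32 UMIs in brain S3, none in dura S3 and 14 in dura D3. Socs3 stands in both lists.

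Over the 59 groups of at least 50 cells, the genes with the most similar pattern were named by Pearson correlation of log2(CPM + 5) among 12861 genes. For Osm these were Alox5ap (0.91), Mtus1, Rab31, Pik3r6 and Fes, and for Tnfsf9 they were Tnip3 (0.89), which was also on the cDC2 marker list, Creb5, Ctnnd2, Cxcl16 and Nlrp1b. For Il10 they were Scarf1 (0.82), Siglec1 (0.81), Itsn1, Pdgfc and Tmem221. Those of Tnf were less close, Basp1 (0.78), Ccrl2 (0.74), Nek6, Cflar and Mitf, and those of Tnfrsf1b were Rap1b (0.84), Myo9b, Hip1, Chmp4b and Stat3. Among the 9 genes themselves the closest pair was Osm and Il6ra (0.61), and Osm and its neighbour Lif were at -0.15. Groups of 1 library share cells' depth and handling, so these values describe the libraries only.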

How the data were processed

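Per the study's methods and processing notes, the authors aligned to mm10 in Cell Ranger 3.1.0 and scaled each cell to 10000 UMIs in Seurat 3.1.0. They deposited natural log values, with 1 added to the scaled number. The plan had assumed counts. Every value came back as a whole number of UMIs (100% within 1e-06), the smallest value of a cell being taken as 1 UMI, and only genes found in at least 3 cells of a library are listed. All 4 matrices were used whole, and 0 columns were left out.

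Kept cells had over 1000 and under 6000 genes, with a mitochondrial share of up to 7%. Scrublet in scanpy 1.11.5 marked under 0.5% of each library automatically, so the highest scores were removed at 0.8% per 1000 barcodes, 179, 281, 184 and 99 cells in brain S3, brain D3, dura S3 and dura D3. Cells were clustered in Seurat 5.3.0 (R 4.3.3) on 2500 variable genes, without the members and pathway lists, with mitochondrial share and UMIs regressed, 30 principal components, 20 neighbours and resolution 0.6. Each cluster was named from 28 marker lists by the markers found among its 10 leading genes, given at least 3 markers in at least 10% of its cells; this scoring was set after the data were seen. Clusters in which another lineage was as strong stayed unnamed, 488 cells in all.

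UMIs were summed per class and library. Intervals are exact Poisson for levels, exact binomial (Clopper-Pearson) for shares and exact conditional for ratios, all at 95%, and a limit of 3 UMIs stands for 0. Ratios were taken for all genes with at least 10 UMIs, which gave the background shares. Each group is 1 library, so no test was made. The members and lists were chosen with earlier results of these data known. All 9 members are named; of a pathway list at most the 3 genes with the largest ratio in each direction and comparison, and for likeness the 5 closest genes with at least 100 UMIs. Gene positions, from GENCODE vM21 on GRCm38, were matched by symbol. The alternatives were gating each cell on its own marker scores, no filter on cells, doublets kept, resolution 1.2, members kept among the clustering genes, each cell with the same weight, cells thinned to 2000 UMIs, 2500 cells drawn per library and at least 30 UMIs. Leaving out the cell with the most UMIs of a member was added after seeing the data. The steps were tested on simulated data. Python 3.11.15, numpy 2.4.6, scipy 1.17.1, pandas 2.3.3 and matplotlib 3.10.9 were used.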

Additional observations from a re-analysis of the deposited data

How the results depend on the processing

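No paired analysis was possible because each group has 1 library. The counts of members called moved by over 1.5 times under these settings. In the brain, 12 higher and 8 lower calls became 5 and 5 with 2500 cells drawn per library and 6 and 5 with cells thinned to 2000 UMIs. In the dura mater, 6 higher calls became 3 without the filter on cells, 3 with 2500 cells, 2 thinned and 3 with at least 30 UMIs, and 10 lower calls became 5 with each cell gated on its own, 5 without the filter and 3 thinned. Between brain S3 and dura S3, 17 higher calls became 10 gated, 11 with doublets kept, 11 with 2500 cells and 5 thinned, and 7 lower calls became 12 gated. For infiltrating macrophages against the other macrophages of S3, 0 higher calls became 1 when gated, without the filter, at resolution 1.2, with members among the clustering genes and with each cell at the same weight. The class and library with the highest level stayed the same for 5 of 9 members when gated, without the filter and with 2500 cells. Thinning and drawing 2500 cells leave fewer UMIs and cells by construction; the cause of the other moves was not tested.

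These log2 ratios turned direction. Gated per cell, they were -0.43 for Il6 in Lyve1- macrophages and 1.31 for Il10 in proliferating cells (brain D3 over S3), -0.0081 for Il6ra in ILC2, -0.25 for Il10 in cDC2 and 1.12 for Il10 in proliferating cells (dura D3 over S3), 0.18 for Il6 in proliferating cells (brain S3 over dura S3) and 0.58 for Il6 in infiltrating macrophages against the other macrophages of D3. Without the filter on cells Il6ra in ILC2 of the dura mater was -0.12. With doublets kept, Tnfsf9 in Ly6C low monocytes of the brain was -2.01, Il10 in proliferating cells 2.11 in the brain and 1.74 in the dura mater, and, for brain S3 over dura S3, Osm in NK/ILC1 cells -0.61 and Il6 in proliferating cells 0.68. Il10 in proliferating cells was also 1.68 (brain) and 1.69 (dura mater) at resolution 1.2 and 1.71 and 1.69 with members among the clustering genes, where Il6 in Lyve1- macrophages was 0.092 (brain S3 over dura S3). With 2500 cells, Il6 in Lyve1- macrophages was -0.18 and Il10 in proliferating cells 2.25 in the brain, Tnfsf9 in ILC2 -0.48, Il6ra in ILC2 -0.19 and Il10 in Lyve1- macrophages -0.036 in the dura mater, and Il10 in Lyve1- macrophages -0.79 for brain S3 over dura S3. Thinned, Osm in T cells of the brain was -0.0074, Lif in gamma-delta T cells of the dura mater 0.81 and Tnf in B cells -0.32 (brain S3 over dura S3). Without the richest cell, Il10 in proliferating cells was -1.66 (brain S3 over dura S3). The cause was not tested.

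Calls that could be compared were kept in 40 of 75 when gated, 45 of 69 without the filter, 56 of 77 with doublets kept, 67 of 77 at resolution 1.2, 69 of 77 with members among the clustering genes, 67 of 78 with equal weight, 50 of 69 with 2500 cells, 32 of 51 thinned, 68 of 68 with at least 30 UMIs and 61 of 76 without the richest cell. Levels of Il6, Lif and Il10 rest on few cells, and where no UMI was found the depth allows up to 3.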
